A study of Homo sapiens with 12 samples.

Results

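The genes described here are 38 genes for the signalling and repair of DNA double-strand breaks and interstrand crosslinks. They were listed by gene name and not by a threshold on their values, though with earlier results of these data known. All 38 matched a row among the 58174 gene rows of the 2 deposited mRNA-seq tables. By role, 7 are checkpoint kinases and mediators, 4 process broken ends, 12 act in homologous recombination, 10 belong to the Fanconi pathway and 5 to end joining.

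U87 and U118 are long-established lines from human glioblastoma. In each line, control cells were compared with aggregation cells, the clusters that grew out after continuous temozolomide (TMZ) at 50 µM. TMZ is an alkylating drug. In the sample labels, sensitive stands for control and resistant for aggregation. The study's methods start from cells sorted for lack of the stem cell surface markers CD133 and CD15 and kept in serum with BMP2. Each of the 4 groups had 3 mRNA libraries, 12 in all, and the labels give no sequencing batch. No source used here says whether libraries of a group came from separate cultures, so the p-values measure the spread between libraries, which may be technical.

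A double-strand break is bound by the MRE11, RAD50 and NBN complex, which trims the ends and activates the kinase ATM. Single-stranded DNA at resected ends and stalled replication forks activates ATR, and both kinases signal through CHEK1 or CHEK2 to hold the cell cycle. Homologous recombination copies the lost sequence from the sister chromatid through BRCA1, BRCA2 and their partners, while end joining ligates the ends directly through the Ku heterodimer. The Fanconi pathway unhooks interstrand crosslinks by attaching ubiquitin to FANCD2 and FANCI. Many genes of these pathways are transcribed most in cells that replicate their DNA. TMZ lesions that escape direct repair give rise to double-strand breaks at replication forks.

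The sequence around the transcription start of 6 members on which the comparisons turn is shown first. CHEK1 and TOPBP1 were called lower in both cell lines. FANCD2 and XRCC6 were called lower in U118, and with TOPBP1 their windows hold the letters of an E2F site, the element of many S phase genes. MRE11 and RAD50 are partners in a complex whose levels parted in U118. Each window runs from 250 bases before to 50 bases after a RefSeq start on GRCh38.p14, 5′ to 3′ on the gene's strand. CHEK1 has further windows in the RefSeq table. Capitals mark matches to the E2F letters TTTCGCGC, TTTGGCGC or TTTCCCGC and to CCAAT, on either strand.
CHEK1 (chr11:125626106-125626405, plus strand): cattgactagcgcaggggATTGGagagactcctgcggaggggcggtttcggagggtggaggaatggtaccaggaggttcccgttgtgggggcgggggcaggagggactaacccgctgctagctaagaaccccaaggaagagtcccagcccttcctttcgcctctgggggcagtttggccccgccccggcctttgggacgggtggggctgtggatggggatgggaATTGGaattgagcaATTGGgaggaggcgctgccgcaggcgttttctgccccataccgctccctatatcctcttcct
TOPBP1 (chr3:133661892-133662191, minus strand): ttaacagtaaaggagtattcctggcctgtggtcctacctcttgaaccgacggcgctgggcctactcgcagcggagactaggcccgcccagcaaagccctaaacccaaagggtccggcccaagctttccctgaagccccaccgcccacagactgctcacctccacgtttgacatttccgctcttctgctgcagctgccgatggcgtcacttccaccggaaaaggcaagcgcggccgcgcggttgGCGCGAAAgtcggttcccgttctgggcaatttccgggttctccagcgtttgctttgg
FANCD2 (chr3:10026187-10026486, plus strand): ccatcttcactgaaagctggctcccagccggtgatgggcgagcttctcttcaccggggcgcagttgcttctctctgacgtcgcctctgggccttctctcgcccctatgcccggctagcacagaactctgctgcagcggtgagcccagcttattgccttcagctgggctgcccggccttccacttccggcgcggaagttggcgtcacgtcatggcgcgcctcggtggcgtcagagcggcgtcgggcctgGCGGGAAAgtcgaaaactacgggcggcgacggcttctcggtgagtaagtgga
XRCC6 (chr22:41621045-41621344, plus strand): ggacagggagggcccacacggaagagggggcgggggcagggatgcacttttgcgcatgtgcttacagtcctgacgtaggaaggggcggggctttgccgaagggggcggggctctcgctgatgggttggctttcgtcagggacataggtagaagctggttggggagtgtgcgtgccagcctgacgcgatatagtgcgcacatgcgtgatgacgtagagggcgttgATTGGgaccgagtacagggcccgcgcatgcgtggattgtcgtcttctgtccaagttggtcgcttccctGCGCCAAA
MRE11 (chr11:94493795-94494094, minus strand): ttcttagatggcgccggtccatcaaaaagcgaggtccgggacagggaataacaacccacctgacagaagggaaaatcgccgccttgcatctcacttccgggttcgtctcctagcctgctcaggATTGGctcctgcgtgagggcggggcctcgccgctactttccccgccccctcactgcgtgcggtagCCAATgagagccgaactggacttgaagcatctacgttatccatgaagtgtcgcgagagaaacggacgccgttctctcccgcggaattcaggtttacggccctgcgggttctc
RAD50 (chr5:132556727-132557026, plus strand): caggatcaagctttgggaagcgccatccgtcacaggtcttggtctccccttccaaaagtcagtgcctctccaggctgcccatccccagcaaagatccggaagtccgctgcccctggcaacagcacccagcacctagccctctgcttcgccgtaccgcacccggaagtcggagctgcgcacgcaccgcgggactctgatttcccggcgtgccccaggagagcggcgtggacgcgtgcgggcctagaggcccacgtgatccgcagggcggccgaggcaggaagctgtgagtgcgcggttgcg

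Of the 38 members, 34 had a start window in the table. The E2F letters were in the windows of 5 of them (14.7%), FANCC, FANCD2, TOPBP1, XRCC2 and XRCC6, against 3.3% of all 27305 genes. No word of a motif searched contains a word of another. CCAAT was in 18 of 34 (52.9%), against 39.7% of all genes. The cell cycle homology letters TTTGAA or TTCGAA were in 4 of 34 (11.8%), ATM, BRIP1, FANCC and MDC1, against 19.5%. Genes with more than 1 window count once if any window holds the letters. A match describes the letters only.

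The libraries differed in ways that touch the results. Mitochondrially encoded genes took 12.9% to 16.9% of the summed TPM (a transcript level corrected for transcript length) in U87 control, 22.2% to 23.7% in U87 aggregation, 7.42% to 19.7% in U118 control and 13.2% to 29.9% in U118 aggregation libraries. Every library has a fixed TPM total, read counts are not kept, and the depth is unknown. The U87 control libraries and the U118 aggregation libraries spread the most. In U87 control, 29 of 36 members were above their group's mean in library 2 and 30 of 36 below it in library 1. In U118 aggregation, 33 of 38 were above the group's mean in library 1, and 33 and 29 of 38 below it in libraries 2 and 3. Over all genes tested, each library's deviation from its group mates was set beside transcript GC content. The rank correlations were 0.60, -0.61 and 0.23 in U87 control libraries 1 to 3, and 0.039, 0.13 and -0.17 in U87 aggregation. They were 0.095, 0.49 and -0.42 in U118 control, and -0.33, 0.33 and 0.19 in U118 aggregation. Across 16382 genes, the U118 aggregation libraries had rank correlations of 0.808 to 0.839 with U118 control and of 0.895 to 0.913 with the U87 libraries. Of 107 genes under 0.1 TPM in every U87 library and at a mean of at least 10 TPM in U118 control, a list drawn up after the data were seen, 70 were under 0.1 TPM in all 3 U118 aggregation libraries and 3 were at 10 TPM or more in all of them. Of 9 Y-linked genes, 8 reached 1 TPM in U118 control, 6 in U118 aggregation and 0 in U87 libraries. Whether the U118 control and aggregation libraries hold the same cells was not tested, and every U118 comparison below rests on these libraries.

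Markers that define glial cells were low or absent. Of 7 glioma markers, VIM, NES and CD44 were above 1 TPM in all 12 libraries, while GFAP, SOX2 and S100B were under 1 TPM in all of them, SOX2 being at 0 in every U87 library. The seventh, OLIG2, was at 1.45 to 4.45 TPM in the U87 libraries, at 0 to 0.052 TPM in U118 control and at 0.57 to 1.05 TPM in U118 aggregation. Of 4 immune markers CD68 alone reached 1 TPM, and the 3 endothelial markers together stayed between 0.311 and 1.2 TPM. The summed level of 8 fibroblast genes went from 235 to 237 TPM in U87 control to 441 to 524 TPM in aggregation libraries, and from 1301 to 1684 TPM in U118 control to 291 to 658 TPM. Of these, 3 of 4 tested were called higher in U87 and 7 of 7 tested lower in U118. The part of these shifts in the results for repair genes was not tested.

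In all 4 groups the Ku genes XRCC6 and XRCC5 stood highest among the 38, and BRCA2 and FANCM were among the lowest 3. XRCC6 had 414, 394 and 403 TPM in U87 control libraries 1 to 3 and 1015, 893 and 733 TPM in U118 control. BRCA2 had 0.592, 4.21 and 2.74 TPM in the same U87 libraries and 0.347, 0.328 and 0.619 TPM in U87 aggregation. TPM is a level per transcript length, so these levels may be set beside each other. In all, 35 members reached 1 TPM in every one of the 12 libraries, the exceptions being ATM, BRCA2 and FANCM. The median over the 38 members, as the mean of 3 libraries, was highest in U118 control, at 20.9 TPM, against 12.1 TPM in U87 control, 9.57 TPM in U87 aggregation and 10.5 TPM in U118 aggregation.

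**Figure D1:**
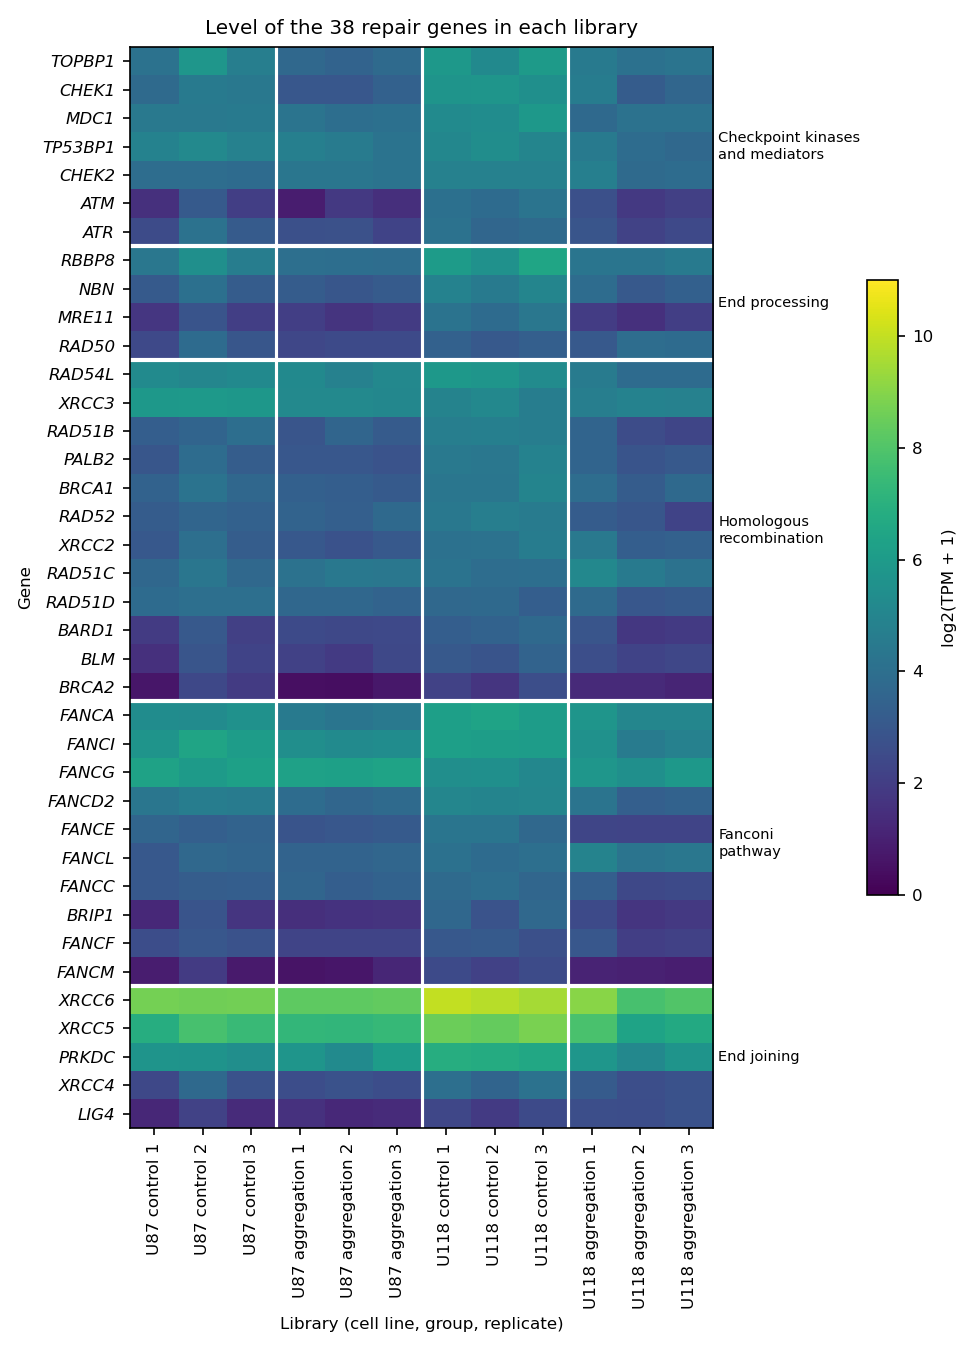
Level of each of the 38 genes, grouped by role and ordered within a role by the U118 control mean, in each of the 12 libraries, as log2(TPM + 1) by colour. The U118 control columns are the brightest for most genes, and XRCC6 and XRCC5 are the brightest rows in all groups.

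Aggregation and control libraries were compared within each line by limma on log2(TPM + 1), over the genes that reached 1 TPM in 3 or more of the line's 6 libraries. A gene was called when its adjusted p (Benjamini-Hochberg, over all genes tested) was under 0.05, with a change of at least 1 on the log2 scale. Changes on this scale understate those of genes at a few TPM. Of the 38, 36 were tested in U87, where BRCA2 and FANCM did not pass the filter, and 38 in U118.

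In U87, 2 of 36 members were called lower in aggregation cells, CHEK1 and TOPBP1, and 0 were called higher. Of all 13845 genes tested, 7.79% were called lower and 3.03% higher, so the members' share was no higher than that of all genes. At an unadjusted p under 0.05, 14 members were lower and 1 higher, against 36.7% and 11.8% of all genes. With no fold threshold, 11 members, CHEK1 and TOPBP1 among them, were lower and 1, CHEK2, higher at an adjusted p under 0.05, against 29.7% and 9.43% of all genes. Control and aggregation libraries did not overlap for 14 members that were lower and 2 that were higher, against 39.8% and 13.6% of all genes. The median change was -0.38, against -0.24 over all genes tested. Changes were below 0 for 28 members and above 0 for 8, against 9532 and 4313 of all 13845 genes.

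In U118, 24 of 38 members were called lower and 0 higher. At an unadjusted p under 0.05, 29 were lower and 0 higher in the same limma fit, against 44.4% and 13.7% of all genes. Of all 15527 genes tested, 26.6% were called lower and 8.64% higher. Groups did not overlap for 29 members that were lower and 3 that were higher (FANCG, FANCL and LIG4), against 42.9% and 15.7% of all genes. Changes were below 0 for 33 members and above 0 for 5, against 11074 and 4453 of all 15527 genes. The median change was -1.25, against -0.52 over all genes tested. Relative to the median of all genes, the members' median was therefore -0.73 in U118 and -0.13 in U87. The U118 value was -0.41 with GC and length trends removed, and the U87 value was -0.26 without control library 1 and -0.060 without control library 2.

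The number of calls depended on the scaling of the libraries. When libraries were scaled by the median ratio of genes instead of to a fixed total, 9 members were called lower in U118 (ATM, CHEK1, MRE11, RBBP8, RAD51B, RAD54L, RAD52, FANCE and XRCC5) and 2 higher (RAD51C and FANCL). The same scaling called 13% of all genes lower and 14.7% higher. The members' median relative to all genes moved little under it, at -0.69 in U118 and -0.13 in U87. In U87 it called 0 members in either direction, against 3.92% and 4.76% of all genes, with 7 lower and 4 higher at an unadjusted p under 0.05 (23.1% and 20.8% of all genes). After each library's dependence on GC content and length was taken out, 14 of the 24 U118 calls were kept, the 9 named above among them. Those of ATR, TOPBP1, TP53BP1, NBN, BARD1, BRIP1, FANCI, FANCM, PRKDC and XRCC4 were lost. Their changes then ran from -0.9999 (TOPBP1) to -0.80 (FANCI), short of the fold threshold, each with an adjusted p under 0.05. With FANCA gained (-1.03), that fit called 15 members lower, against 24.8% of all genes. Without mitochondrially encoded genes 20 were kept, against 21.8% of all genes called lower in that fit. TP53BP1 (-0.94), FANCC (-0.91), FANCI (-0.95) and XRCC4 (-0.89) fell short of the fold threshold. Of the 24 calls, 18 were kept whichever of the 6 U118 libraries was left out.

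**Figure D2:**
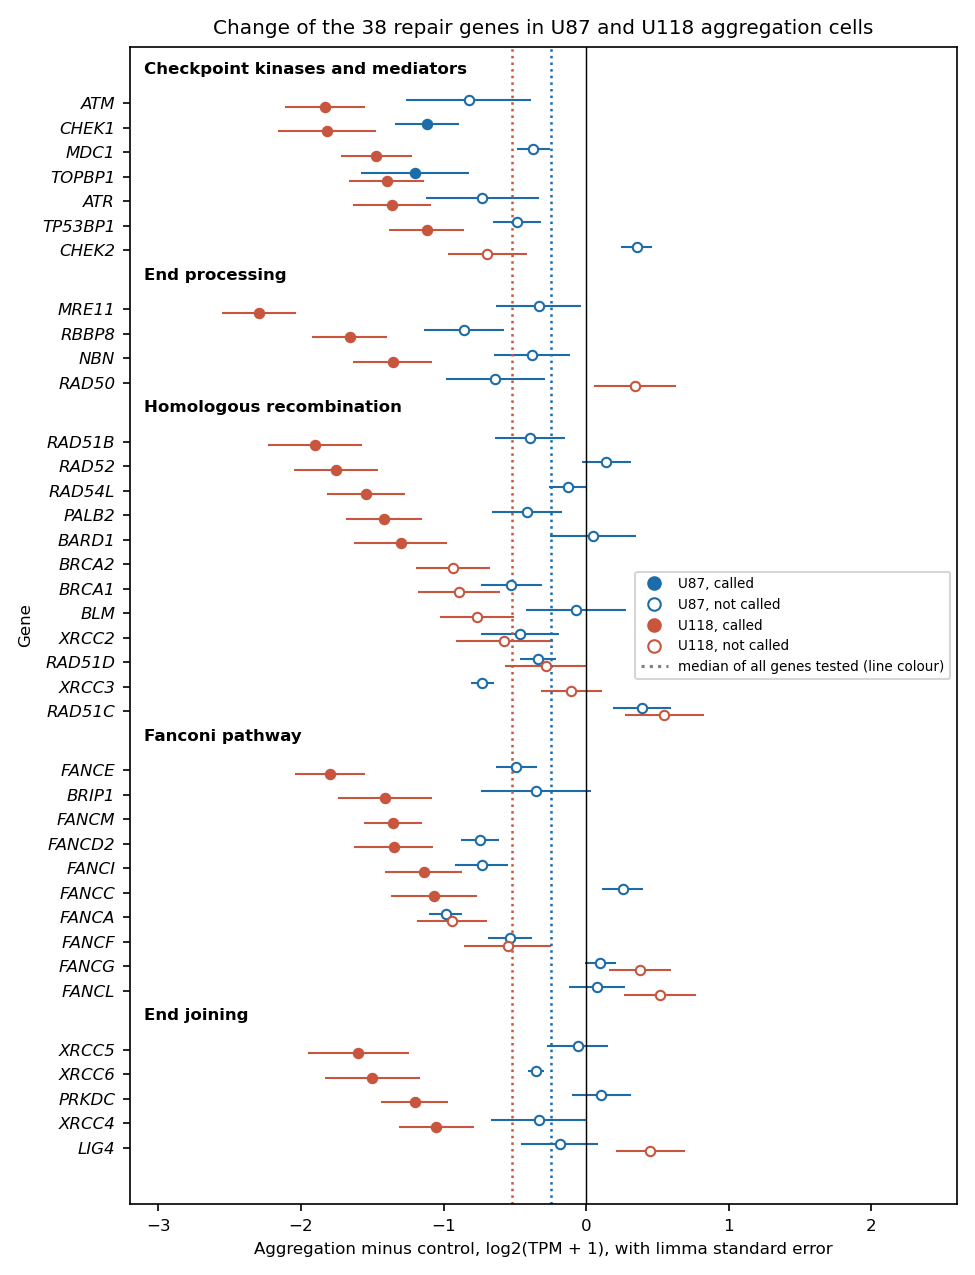
Change of each gene, aggregation minus control, on the log2(TPM + 1) scale with the limma standard error, for U87 (blue) and U118 (red), grouped by role. Filled points were called; dotted lines mark the median of all genes tested, -0.24 in U87 and -0.52 in U118. In each line most points lie left of that line's dotted line, and most U87 points lie within 1 of 0.

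Among the checkpoint genes, 6 of 7 were called lower in U118 and 2 of 7 in U87, with median changes of -1.40 and -0.73. Of all genes, 26.6% and 7.79% were called lower. Under median-ratio scaling 2 of the 7 were called lower in U118 and 0 in U87, against 13% and 3.92% of all genes. ATM (ENSG00000149311, chr11:108222484-108369102, plus strand), the kinase that answers double-strand breaks, had 15.5, 13.2 and 17.5 TPM in U118 control libraries 1 to 3 and 5.47, 2.55 and 3.21 TPM in aggregation libraries. Every aggregation library lay below every control library, and the gene fell by 1.83 ± 0.28 (SE, adjusted p = 0.000785, n = 3 per group). In U87, ATM was already low in control: 1.88, 7.77 and 3.09 TPM in control and 0.848, 2.58 and 1.82 TPM in aggregation. There the groups overlapped, control library 2 stood highest, and the change of -0.82 ± 0.44 did not pass (adjusted p = 0.179). With a U87 library left out, the ATM change ran from -1.18 to -0.37 and was not called. By RT-qPCR the study reports that ATM rose with time over the first days of TMZ, a stage not among these libraries. ATR, its counterpart at stalled forks, had 16.5, 11.4 and 12.8 TPM in U118 control and 6.41, 3.46 and 4.33 TPM in aggregation, a fall of 1.36 (adjusted p = 0.00328). Its U87 levels of 4.78, 16.5 and 7.88 TPM in control and 5.36, 5.68 and 3.64 TPM in aggregation overlapped (-0.73, adjusted p = 0.189), and the change was -1.10 and called without control library 1 but -0.30 without control library 2.

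CHEK1 (ENSG00000149554, chr11:125625136-125676255, plus strand), the effector kinase of ATR, was lower in both lines. It had 13.1, 22.2 and 19.9 TPM in U87 control and 6.95, 7.03 and 9.63 TPM in U87 aggregation libraries, a fall of 1.11 ± 0.22 (adjusted p = 0.00809). In U118 the values were 50.6, 52.9 and 43.2 TPM in control and 23.6, 8.19 and 11.4 TPM in aggregation, a fall of 1.82 ± 0.34 (adjusted p = 0.00241). The groups did not overlap in either line, and aggregation library 1 was the highest of its group in U118. Without U87 control library 2 the U87 change was -0.97 and fell short of the fold threshold. Under median-ratio scaling the U87 change was -0.87 and was not called, while the U118 change stayed called at -1.29.

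TOPBP1, the scaffold that switches on ATR, was the other member called in both lines. Its U87 control libraries ranged widely, with 16.9, 53.3 and 24.8 TPM, against 12, 10.5 and 12.9 TPM in aggregation (-1.20 ± 0.38, adjusted p = 0.0421). The groups did not overlap, but control library 2 held more than its group mates by a wide margin. This call was lost in 5 of the 6 fits that left out a library: without control library 2 the change was -0.75, and without control library 3 or any of the aggregation libraries the adjusted p was 0.0839 to 0.123. It was also lost under median-ratio scaling (-0.95), with the replicate block (adjusted p = 0.0655), without mitochondrially encoded genes (0.0523), without the filter on low values (0.116) and without the eBayes trend (0.0513). In U118 it had 57, 36.1 and 61.9 TPM in control and 22, 16 and 17.8 TPM in aggregation (-1.40, adjusted p = 0.00224), with every aggregation library below every control library.

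MDC1 and TP53BP1 are chromatin mediators that gather at breaks marked by phosphorylated H2AX. MDC1 had 37.1, 39.7 and 57.1 TPM in U118 control and 12.4, 16.9 and 16.7 TPM in aggregation (-1.47, adjusted p = 0.0013). In U87 its levels of 20.9, 20.6 and 21.5 TPM and 18, 14.7 and 15.5 TPM did not overlap either, but the change of -0.37 was under the fold threshold (adjusted p = 0.0412). TP53BP1 had 33, 41 and 30.8 TPM in U118 control and 21.7, 13.7 and 12.2 TPM in aggregation (-1.12, adjusted p = 0.00737). All its U118 aggregation libraries were lower, and without aggregation library 3 the change was -0.96, short of the fold threshold. Its U87 values were 28.8, 35.3 and 27.9 TPM in control and 25.6, 22.5 and 17.2 TPM in aggregation, which did not overlap (-0.49, adjusted p = 0.0606).

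CHEK2, the effector kinase of ATM, was the checkpoint gene not called in U118. It had 27.3, 27.2 and 27.9 TPM in U118 control and 25.5, 13 and 13.8 TPM in aggregation, where library 1 lay close to control and libraries 2 and 3 were lower (-0.69, adjusted p = 0.0632). In U87 it was higher in every aggregation library, with 14.5, 14.3 and 13.4 TPM in control and 19, 18.8 and 17 TPM in aggregation, a change of 0.36 ± 0.11 under the fold threshold (adjusted p = 0.0388). GENCODE names 4 pseudogenes of CHEK2, with which reads may be shared. CHEK2 was above ATM in all 12 libraries.

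End processing held the largest fall of the set. MRE11 (ENSG00000020922, chr11:94415578-94493908, minus strand), the nuclease of the complex, had 17.5, 13.5 and 19.5 TPM in U118 control and 2.91, 1.89 and 3.14 TPM in aggregation, a fall of 2.29 ± 0.26 (adjusted p = 0.000121). Every aggregation library was far below every control library, and the change stayed between -2.44 and -2.13 whichever library was left out. In U87, MRE11 was at 2.30, 6.25 and 3.11 TPM in control and 3.09, 2.18 and 2.78 TPM in aggregation, which overlapped (-0.33, adjusted p = 0.419). The U118 aggregation libraries thus lay at the level of the U87 libraries. GENCODE names 1 pseudogene of MRE11.

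RAD50 (ENSG00000113522, chr5:132556019-132646344, plus strand), the ATPase that tethers the ends and the partner of MRE11, was not lower in U118. It had 9.58, 7.53 and 9.11 TPM in control and 7.35, 14.2 and 13.5 TPM in aggregation libraries (0.34 ± 0.29, adjusted p = 0.344). Aggregation libraries 2 and 3 were above control and library 1 was below it. With a library left out the U118 change ran from 0.18 to 0.62. With GC and length trends removed it was 0.79 (adjusted p = 0.0545). The U87 libraries held 4.32, 13.5 and 6.64 TPM in control, library 2 being the highest, and 4.14, 4.54 and 4.51 TPM in aggregation (-0.64, adjusted p = 0.19). With a library left out the U87 change ran from -0.97 to -0.24.

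NBN, which links the complex to ATM, had 28.1, 21.6 and 31.5 TPM in U118 control and 13.7, 7.44 and 9.27 TPM in aggregation, without overlap (-1.36, adjusted p = 0.00339). NBN in U87 had 7.77, 15.9 and 8.26 TPM in control and 8.12, 6.63 and 7.97 TPM in aggregation, with overlap (-0.38, adjusted p = 0.301). RBBP8, also known as CtIP, starts resection with MRE11. Its values were 65.5, 45.7 and 86.9 TPM in U118 control and 18.5, 18.1 and 22.2 TPM in aggregation (-1.66 ± 0.26, adjusted p = 0.00094). RBBP8 was also the end-processing gene with the largest change in U87, with 19.3, 43.9 and 24.1 TPM in control and 15.4, 14.5 and 14 TPM in aggregation (-0.86, adjusted p = 0.0473). The groups did not overlap in either line, and in U87 the change was under the fold threshold, which it passed without U87 control library 1 (-1.10), while without control library 2 it was -0.53.

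**Figure D3:**
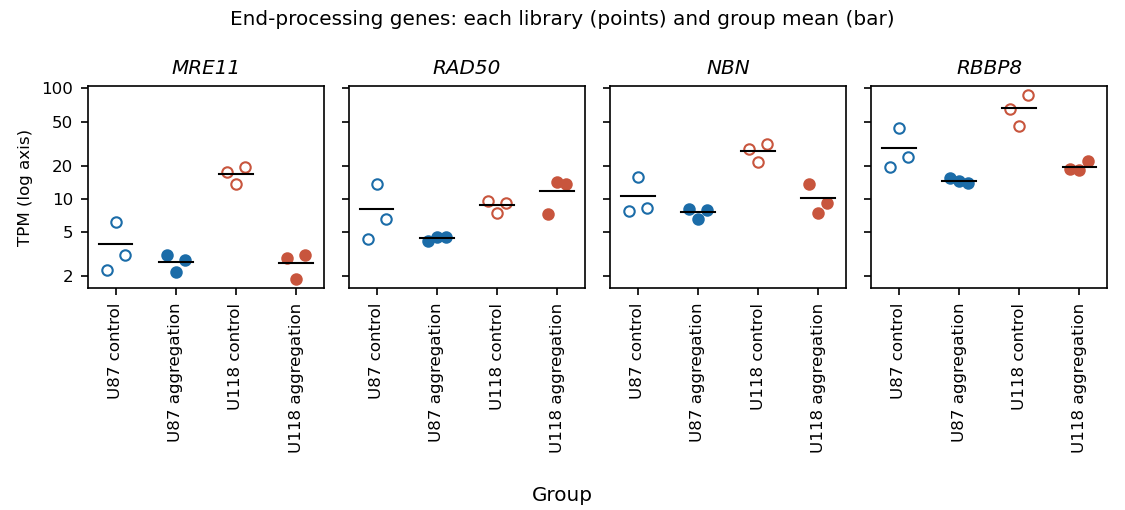
TPM on a log axis of the 4 end-processing genes in each library (points; open for control, filled for aggregation) with the group mean (bar), for U87 (blue) and U118 (red). MRE11, NBN and RBBP8 were lower in every U118 aggregation library than in every U118 control library, and RAD50 overlapped.

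Homologous recombination was split: 5 of 12 genes were called lower in U118, against 26.6% of all genes, and 7 were not called. Under median-ratio scaling 3 were called lower there and 1 higher, against 13% and 14.7% of all genes. The median change of the 12 was -0.91 in U118 and, over the 11 tested, -0.34 in U87. In U87 limma called 0, against 7.79% of all genes lower and 3.03% higher. At an unadjusted limma p under 0.05, 3 were lower in U87, against 36.7% of all genes. RAD51B, which acts in a complex with RAD51C, had 25.1, 25.9 and 24.6 TPM in U118 control and 10.7, 4.92 and 3.95 TPM in aggregation (-1.90 ± 0.33, adjusted p = 0.00144). All aggregation libraries lay below all control libraries, with library 1 the highest of them. In U87 it had 8.71, 10.8 and 14.9 TPM in control and 6.51, 10.9 and 8.03 TPM in aggregation, with overlap (-0.39, adjusted p = 0.244).

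RAD51C (ENSG00000108384, chr17:58692573-58735611, plus strand) acts in complexes with RAD51B and with XRCC3 and was the member with the largest positive change in each line. In U118 it had 17.3, 14.3 and 14.9 TPM in control and 33.7, 21.4 and 17 TPM in aggregation, an overlap at library 3 (0.55 ± 0.28, adjusted p = 0.125). In U87 it had 11.7, 19.2 and 12 TPM in control and 16.5, 20.3 and 19.3 TPM in aggregation, with control library 2 among the aggregation values (0.39 ± 0.20, adjusted p = 0.172). Neither change was called, and under median-ratio scaling the U118 change was 1.08 and called higher (adjusted p = 0.00185). XRCC3, the other partner of RAD51C, had the largest fall in U87 of the 11 recombination genes tested there, from 57.7, 61.1 and 56.3 TPM to 35.5, 35.5 and 33.5 TPM. That fall of 0.73 ± 0.081 (adjusted p = 0.000746) was under the fold threshold though the groups were well apart. In U118 XRCC3 had 29.4, 33.7 and 24.6 TPM in control and 25, 28.4 and 27.4 TPM in aggregation, with overlap (-0.10, adjusted p = 0.7).

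RAD52, which anneals complementary strands, and RAD54L, a motor protein of strand invasion, fell in U118 and were not called in U87. RAD52 had 20.1, 24.9 and 22.7 TPM in U118 control and 8.32, 6.77 and 3.64 TPM in aggregation (-1.76 ± 0.30, adjusted p = 0.00127). The U87 values were 8.09, 11.1 and 9.58 TPM and 10.3, 9.17 and 12.6 TPM, with overlap (0.14, adjusted p = 0.557). RAD54L had 57.1, 51.6 and 39.1 TPM in U118 control and 22.9, 13.4 and 13.4 TPM in aggregation (-1.54 ± 0.27, adjusted p = 0.00166). For both genes the U118 groups did not overlap, and both were still called under median-ratio scaling. The U87 values of RAD54L were 37.6, 32 and 36.7 TPM in control and 35.9, 27.2 and 34.6 TPM in aggregation, with overlap (-0.12, adjusted p = 0.5).

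PALB2 bridges BRCA1 and BRCA2, and BARD1 is the partner of BRCA1 in a ubiquitin ligase. PALB2 had 21.1, 19.3 and 28.3 TPM in U118 control and 10.5, 6.24 and 7.33 TPM in aggregation (-1.41, adjusted p = 0.00234). BARD1 had 8.75, 9.98 and 12.4 TPM in U118 control and 6.42, 2.49 and 2.71 TPM in aggregation (-1.30, adjusted p = 0.0098). Neither gene's U118 groups overlapped, and without U118 control library 3 the adjusted p of BARD1 was 0.0514. In U87, PALB2 had 6.67, 13.8 and 8.52 TPM and 7.04, 6.96 and 6.10 TPM, and BARD1 2.79, 7.48 and 3.29 TPM and 4.48, 4.24 and 4.31 TPM, in control and aggregation. Both overlapped, with changes of -0.42 and 0.048 (adjusted p = 0.224 and 0.917).

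The other recombination genes were BRCA1, BRCA2, RAD51D, XRCC2 and the helicase BLM. Their U118 changes ran from -0.93 for BRCA2 (adjusted p = 0.0157) and -0.89 for BRCA1 (adjusted p = 0.0279) to -0.28 for RAD51D (adjusted p = 0.427). BRCA1, BRCA2 and BLM had an adjusted p under 0.05 there without reaching the fold threshold. BRCA1 was called without U118 control library 1 (-1.01) or aggregation library 1 (-1.04), and BRCA2 without control library 2 (-1.16) or with a pseudocount of 0.1 (-1.28). With GC and length trends removed, BRCA1, BRCA2 and BLM were at -0.46, -0.45 and -0.35 in U118 (adjusted p = 0.13, 0.101 and 0.184). Under median-ratio scaling they were at -0.37, -0.54 and -0.29 (adjusted p = 0.237, 0.107 and 0.287). In U87 the changes of the 4 tested ran from -0.53 to -0.070, and none of them had an adjusted p under 0.05.

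Of the Fanconi genes, 6 of 10 were called lower in U118, with a median change of -1.10, and 0 of 9 tested in U87 (5 lower at an unadjusted p under 0.05), with a median of -0.49. In U87, 5 of the 9 had an adjusted p under 0.05 with a change under the fold threshold, all of them lower. Of all genes, 26.6% were called lower in U118 and 7.79% in U87. In U87, 36.7% of all genes were lower at that unadjusted p, and 29.7% at an adjusted p under 0.05 at any fold. Under median-ratio scaling 1 of the 10 was called lower in U118 and 1 higher, against 13% and 14.7% of all genes. FANCE, the core subunit that holds FANCD2, had 18.1, 18.3 and 12 TPM in U118 control and 3.96, 3.84 and 3.78 TPM in aggregation (-1.80 ± 0.25, adjusted p = 0.000406). The 3 aggregation libraries lay close together and below all control libraries. In U87 it had 11, 9.01 and 10.2 TPM in control and 6.20, 6.85 and 7.56 TPM in aggregation, also without overlap (-0.49, adjusted p = 0.0326).

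FANCD2 (ENSG00000144554, chr3:10026414-10101930, plus strand) and FANCI form the pair that receives ubiquitin. FANCD2 had 32.3, 30.2 and 32.4 TPM in U118 control and 17.9, 9.0 and 10.0458 TPM in aggregation (-1.35, adjusted p = 0.00356). FANCI had 72.3, 68.8 and 65.8 TPM in U118 control and 46, 22.9 and 27.5 TPM in aggregation (-1.14, adjusted p = 0.00754). Neither overlapped, U118 aggregation library 1 was the highest of its group for both, and without aggregation library 2 the change of FANCI was -0.93. In U87, FANCD2 went from 19.1, 24 and 23 TPM to 13.7, 11.4 and 13 TPM (-0.75, adjusted p = 0.00527). FANCI went from 50.2, 85.7 and 67 TPM to 42.1, 36.9 and 39.3 TPM (-0.73, adjusted p = 0.02). Both were lower in every U87 aggregation library by less than the fold threshold. GENCODE names 1 pseudogene of FANCD2.

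FANCA, a core subunit that pairs with FANCG, was lower in both lines by just under the fold threshold. In U87 it had 39.8, 38.2 and 45.9 TPM in control and 22.1, 18.4 and 20.5 TPM in aggregation (-0.99 ± 0.12, adjusted p = 0.000935). In U118 it had 72.4, 82.4 and 66.3 TPM in control and 52.4, 31.9 and 32.2 TPM in aggregation (-0.94 ± 0.25, adjusted p = 0.0121). The groups did not overlap in either line, and it was called in U87 without control library 1 (-1.01), control library 2 (-1.04) or aggregation library 1 (-1.04), and in U118 without control library 3 (-1.01) or aggregation library 1 (-1.17). FANCG was at 73.1 ± 8.78 TPM in U87 control and 78.1 ± 4.40 TPM in aggregation (mean ± SD, n = 3), and at 39.9 ± 5.64 and 52 ± 7.0 TPM in U118. Its changes of 0.10 and 0.38 did not pass (adjusted p = 0.502 and 0.171).

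FANCL, the ubiquitin ligase of the core complex, was the Fanconi gene with the largest positive change in U118. It had 16.4, 13.2 and 15 TPM in control and 29.4, 17.6 and 19.7 TPM in aggregation, where every library was higher and library 1 the highest (0.52 ± 0.25, adjusted p = 0.113). It was called higher under median-ratio scaling (1.05, adjusted p = 0.000964). U87 control and aggregation had 7.29, 12.3 and 11.2 TPM and 10.4, 10.2 and 11.3 TPM, with overlap (0.077, adjusted p = 0.785). FANCM, the translocase that anchors the core complex, was low throughout, with 4.54, 3.36 and 4.68 TPM in U118 control and 1.16, 1.01 and 0.888 TPM in aggregation (-1.35, adjusted p = 0.00072). Its U87 values were 0.840, 2.71 and 0.748 TPM in control and 0.495, 0.598 and 1.28 TPM in aggregation, mostly under 1 TPM, and were not tested.

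FANCC and BRIP1 were also called lower in U118. FANCC, a core subunit, had 12.8, 14.5 and 11.4 TPM in U118 control and 9.16, 4.20 and 4.52 TPM in aggregation (-1.06, adjusted p = 0.0168). The groups did not overlap, but the call was lost in 4 of 6 fits that left out a library: without control library 1 or 2 the adjusted p was 0.0516 or 0.0674, and without aggregation library 2 or 3 the change was -0.89 or -0.93. In U87 it was higher in every aggregation library, at 7.22, 8.42 and 8.86 TPM in control and 11, 8.87 and 9.94 TPM in aggregation (0.26, adjusted p = 0.206). BRIP1, a helicase partner of BRCA1, had 11.7, 6.12 and 12.3 TPM in U118 control and 4.54, 2.3 and 2.57 TPM in aggregation (-1.41, adjusted p = 0.00668). Its U87 values of 1.44, 6.35 and 2.21 TPM and 1.81, 2.10 and 2.18 TPM overlapped (-0.35, adjusted p = 0.512). The core subunit FANCF was not called in either line (-0.53 in U87 with adjusted p = 0.032, -0.55 in U118 with adjusted p = 0.158).

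End joining held the most abundant members, and 4 of 5 were called lower in U118, with a median change of -1.20, and 0 of 5 in U87 (1 lower at an unadjusted p under 0.05), with a median of -0.19. Of all genes, 26.6% were called lower in U118 and 7.79% in U87, and 36.7% were lower in U87 at that unadjusted p. Under median-ratio scaling 1 of the 5 was called lower in U118, against 13% of all genes. XRCC6 and XRCC5 encode Ku70 and Ku80, the ring that slides onto broken ends. XRCC6 (ENSG00000196419, chr22:41621119-41664048, plus strand) went from 1015, 893 and 733 TPM in U118 control to 525, 219 and 254 TPM in aggregation (-1.50 ± 0.33, adjusted p = 0.00554). XRCC5 went from 367, 338 and 434 TPM to 228, 82.3 and 102 TPM (-1.60 ± 0.36, adjusted p = 0.00548). Groups stayed apart for both genes, and U118 aggregation library 1 held more of both than libraries 2 and 3. In U87, XRCC6 had 414, 394 and 403 TPM in control and 309, 312 and 327 TPM in aggregation, a small fall with narrow spread (-0.35 ± 0.057, adjusted p = 0.00357). XRCC5 had 116, 219 and 172 TPM and 155, 151 and 164 TPM in U87, with overlap (-0.061, adjusted p = 0.849). GENCODE names 5 pseudogenes of XRCC6, with which reads may be shared.

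PRKDC, the catalytic subunit of the kinase that Ku recruits, had 114, 109 and 95.4 TPM in U118 control and 54.7, 33.9 and 50.3 TPM in aggregation (-1.20 ± 0.23, adjusted p = 0.0028). No aggregation library reached a control library, and without U118 aggregation library 2 the change was -0.998, just short of the fold threshold. Its U87 values were 50.3, 49.3 and 42.6 TPM in control and 52.9, 37.3 and 67 TPM in aggregation, which overlapped (0.11, adjusted p = 0.713). XRCC4 and LIG4 form the ligase of this pathway. XRCC4 had 15.2, 10.8 and 16.5 TPM in U118 control and 7.97, 5.20 and 5.80 TPM in aggregation (-1.05, adjusted p = 0.00963). Its groups did not overlap, and the change was -0.995 without control library 1 and -0.94 without control library 3 or aggregation library 2, short of the fold threshold. LIG4 instead had 4.04, 2.68 and 4.60 TPM in U118 control and 5.28, 5.13 and 5.88 TPM in aggregation, higher in every library (0.45 ± 0.24, adjusted p = 0.146). In U87, XRCC4 had 4.21, 12.5 and 5.88 TPM and 5.01, 5.76 and 5.01 TPM, and LIG4 had 1.36, 3.55 and 1.56 TPM and 1.99, 1.41 and 1.58 TPM, in control and aggregation. Both overlapped, with changes of -0.33 and -0.19 (adjusted p = 0.481 and 0.618).

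Since both partners are read in the same library, the log2 ratio of their levels (each TPM + 1) does not move with the scaling of a library except through that added 1. The ratios are given as a description, with no test. The ratio of MRE11 to RAD50 was 0.81, 0.77 and 1.02 in U118 control and -1.10, -2.40 and -1.81 in aggregation, so that MRE11 went from above RAD50 in all 3 libraries to below it in all 3. In U87, MRE11 was below RAD50 in all 6 libraries, at -0.69, -1.0 and -0.90 in control and -0.33, -0.80 and -0.54 in aggregation. The ratio of NBN to RAD50 moved the same way in U118, by -1.70, and by 0.26 in U87, where the groups overlapped.

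The ratio of XRCC4 to LIG4 was 1.69, 1.69 and 1.65 in U118 control and 0.51, 0.015 and -0.017 in aggregation. That of RAD51B to RAD51C was 0.51, 0.81 and 0.69 in U118 control and -1.56, -1.92 and -1.86 in aggregation. In both cases the first partner lost ground in every U118 aggregation library. RAD51B to RAD51C also moved in U87, by -0.79 without overlap, whereas XRCC4 to LIG4 moved by -0.14 with overlap.

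The balance of FANCA to FANCG shifted in both lines without overlap, from -1.0, -0.72 and -0.70 to -1.75, -1.97 and -1.96 in U87 and from 0.75, 0.90 and 0.97 to -0.045, -0.46 and -0.82 in U118. RAD51C gained on XRCC3 in both lines without overlap, by 1.12 in U87 and 0.65 in U118. BRCA1 lost ground to BARD1 in U87, by -0.57 without overlap, while in U118 the ratio moved the other way, by 0.41 with overlap. The ratio of BRCA2 to PALB2 depended on the added value, BRCA2 being at a few TPM. In U118 it moved by 0.48 without overlap with 1 added and by 0.23 with overlap with 0.1 added, and in U87 by -0.72 and -1.52, both with overlap. Other partners kept closer together. XRCC5 to XRCC6 moved by -0.098 in U118 and 0.29 in U87, and RAD51D to XRCC2 by 0.29 and 0.12, all with overlap. FANCD2 to FANCI moved by -0.21 in U118, a small shift that still left the groups apart, and by -0.011 in U87 with overlap.

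**Figure D4:**
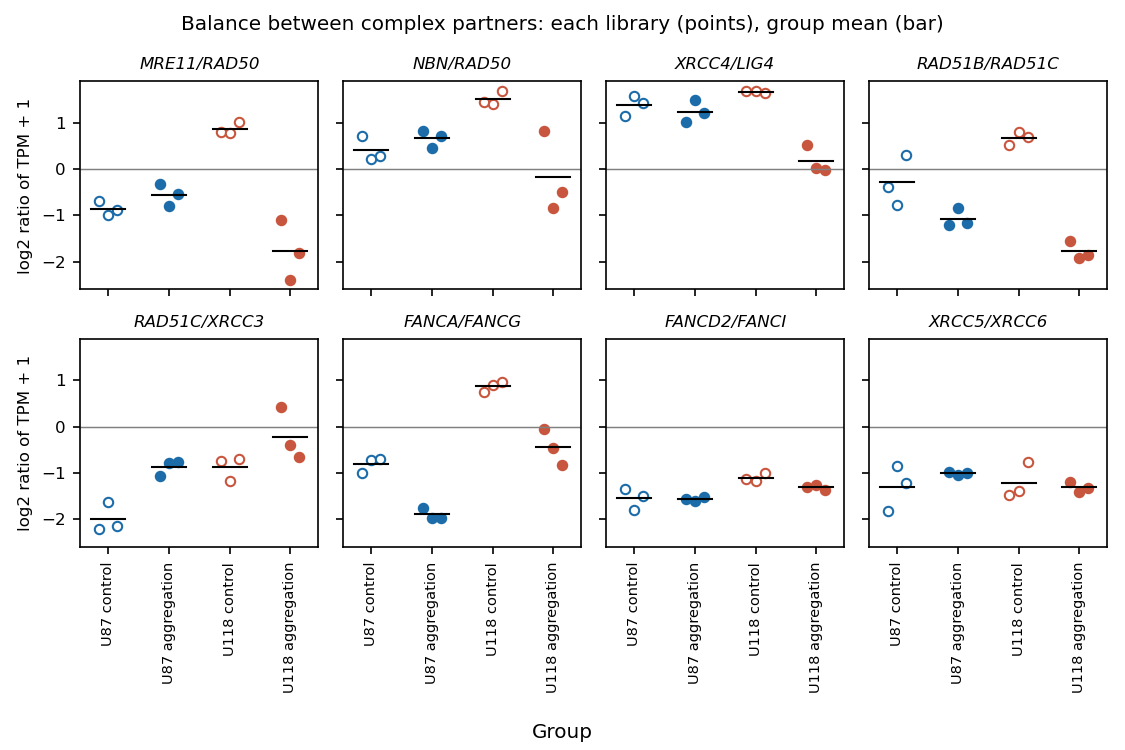
The log2 ratio of the levels (TPM + 1) of 8 partner pairs in each library (points; open for control, filled for aggregation) with the group mean (bar), for U87 (blue) and U118 (red). MRE11/RAD50 and RAD51B/RAD51C go from above 0 to below 0 in U118, FANCA/FANCG falls in both lines, and XRCC5/XRCC6 overlaps in both.

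Whether the 2 lines responded differently was tested by the interaction over all 12 libraries, the U118 change minus the U87 change. Of 16382 genes tested, 18.5% were called negative and 12% positive. A negative value means that the U118 change lay below the U87 change, whether or not the gene fell in U118. Of the 38 members, 12 were called negative and 0 positive, with 15 negative and 1 positive (XRCC3) at an unadjusted p under 0.05 (28.3% and 18.5% of all genes). Those called were CHEK2, MDC1, MRE11, BARD1, RAD51B, RAD54L, RAD52, FANCC, FANCE, PRKDC, XRCC5 and XRCC6. The largest differences were -1.96 ± 0.40 for MRE11 (adjusted p = 0.00193) and -1.90 ± 0.35 for RAD52 (adjusted p = 0.001). ATM was not among them (-1.01 ± 0.54, adjusted p = 0.166), nor was RAD50 (0.98 ± 0.47, adjusted p = 0.122). ATM was called without U87 control library 2 (-1.46) and was at -0.66 without control library 1. RAD50, in the other direction, was called without U87 control library 1 (1.30) or U118 aggregation library 1 (1.25) and was at 0.58 without U87 control library 2. With GC and length trends removed, RAD50 (1.39, adjusted p = 0.0194) and LIG4 (1.01, adjusted p = 0.00662) were called positive. The LIG4 difference was 0.64 in the main fit (adjusted p = 0.182). Without U87 control library 2, 21 members were called negative, against 21.6% of all genes in that fit. CHEK1 and TOPBP1, called in both lines, had differences of -0.71 (adjusted p = 0.234) and -0.20 (adjusted p = 0.773). A further 22 members were called in U118 alone. All of the 12 called in the difference except CHEK2 were among these 22, and the rest of the 22 were not shown to differ between the lines.

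The 38 were also divided by known S phase transcription. Of 11 members known for it (BRCA1, BRCA2, BARD1, CHEK1, BLM, BRIP1, FANCA, FANCD2, FANCI, RAD54L and XRCC2), 6 were called lower in U118, with a median of -1.14. Of the other 27, 18 were called lower, with a median of -1.35. Of all genes, 26.6% were called lower in U118. Under median-ratio scaling 2 of the 11 and 7 of the 27 were called lower in U118, against 13% of all genes. That scaling called 2 of the 27 higher, against 14.7%. In U87 the medians were -0.49 over the 10 tested of the former and -0.36 over the 26 tested of the latter. The summed level of 9 cycling genes went from 1146 to 1344 TPM in U87 control to 528 to 595 TPM in aggregation, and from 1336 to 1556 TPM in U118 control to 493 to 886 TPM. Of the 9, 4 were called lower in U87 and 6 in U118, against 3 and 2 (TOP2A and CCNA2) under median-ratio scaling. The cycling genes did not all go 1 way. E2F1 was higher in every U118 aggregation library than in every control library (0.75, adjusted p = 0.0237), and called higher under median-ratio scaling (1.31), and CDC6 was higher in every U87 aggregation library (0.36, adjusted p = 0.0795). Their part in the change of the repair genes was not tested. In bulk RNA, fewer cells of a kind and less RNA per cell cannot be told apart.

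The change was set beside transcript length and GC content. Across the 36 members tested in U87, the rank correlation of the change with the longest transcript was -0.33, against -0.05 across all genes with a length. Across the 38 in U118 it was -0.05, against -0.19. With GC content the correlation was 0.06 across the members in U87, against 0.02 across all genes, and -0.01 in U118, against 0.27. Genes of a library share its composition, so these are descriptions.

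Of 70 other genes of the same pathways, 69 were tested in U87, of which 5 were called lower and 0 higher (30 and 0 at an unadjusted p under 0.05), against 7.79% and 3.03% of all genes (36.7% and 11.8%). In U118 all 70 were tested, of which 23 were called lower and 0 higher (40 and 1), against 26.6% and 8.64% of all genes (44.4% and 13.7%). The 3 with the largest fall in U87 were PARP1, which senses strand breaks, UBE2T, the ubiquitin-conjugating partner of FANCL, and the histone gene H2AX. PARP1 had 202, 216 and 236 TPM in control and 79.4, 63.3 and 74.8 TPM in aggregation (-1.58 ± 0.11, adjusted p = 0.000126). UBE2T had 166, 179 and 177 TPM and 74.2, 72.8 and 66.2 TPM (-1.28, adjusted p = 8.74e-05), and H2AX 184, 174 and 175 TPM and 75, 80.2 and 76.5 TPM (-1.19, adjusted p = 7.75e-05). PARP1 and UBE2T fell by more than any of the 36 members tested in U87, and the groups of all 3 were far apart.

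In U118 the 3 with the largest fall were EME1, a subunit of the nuclease that cuts branched intermediates, MCM8, a helicase of recombination, and RIF1, which acts with TP53BP1 at ends. EME1 had 43, 45.8 and 42 TPM in control and 18.9, 5.65 and 6.06 TPM in aggregation (-2.19, adjusted p = 0.00188). MCM8 had 23.8, 20.2 and 26.6 TPM and 7.71, 3.56 and 4.31 TPM (-2.04, adjusted p = 0.000505), and RIF1 17.1, 9.74 and 16 TPM and 3.28, 2.18 and 2.92 TPM (-1.98, adjusted p = 0.000453). None of the 3 overlapped between the groups, and MRE11 fell by more than each of them. The median change of the 70 was -0.85 in U118, between that of all genes (-0.52) and that of the 38 members (-1.25), and -0.43 over the 69 tested in U87.

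U118 control stood apart from the other groups in the members' levels, as it did over all genes. Between the U87 and U118 aggregation means, the median absolute distance of the 38 members was 0.37 on the log2(TPM + 1) scale, and 36 of them were within 1. Between U118 control and U118 aggregation it was 1.25, and 14 were within 1. Between U87 control and U118 aggregation it was 0.44, with 32 within 1, and between the U87 groups 0.39, with 35 within 1. Between the control groups it was 0.89, with 23 within 1 and 35 members higher in U118. The tables of the lines were scaled separately, all genes showed a like pattern (85.1% within 1 between the aggregation groups, 65.5% between the U118 groups, 84% between U87 control and U118 aggregation, 90.2% between the U87 groups and 63% between the control groups), and no test was made across the tables.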

How the data were processed

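The authors deposited 1 table of TPM per cell line, each with 58174 Ensembl gene rows. The submitters' processing notes name FastQC 0.11.2, Trimmomatic 0.36, HISAT2 2.0, bedtools 2.26.0 and GRCh38. The quantifier, annotation and strand setting are not given in the sources used here, so reads of overlapping antisense genes or pseudogenes cannot be told apart. TPM keeps no depth, and its total is fixed, so a rise in mitochondrially encoded genes lowers all others. Gene positions and lengths came from GENCODE release 29 on GRCh38 (57836 rows matched), and start windows from RefSeq on GRCh38.p14.

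Values were transformed to log2(TPM + 1), with a pseudocount of 1, and limma 3.58.1 under R 4.3.3 (lmFit, then eBayes with its trend option) was fitted within each line and, for the difference between the lines, over all 12 libraries (genes at 1 TPM in at least 3 libraries). Calls needed an adjusted p under 0.05 and a change of at least 1. The fit was tested on simulated data. Lists were described by counts and medians. Alternatives were a pseudocount of 0.1, no filter, a mean of 10 TPM or more, scaling by median ratios, leaving out mitochondrially encoded genes, removing GC and length trends, eBayes without trend, no fold threshold, a replicate block and leaving out each library.

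The members, their roles and the other lists were chosen with earlier results of these data known. Values in every library are given for members called in a line or in the difference, the largest change in each direction of each role group and line, and ATM, which the study measured, and for the other pathway genes called in a line, the 3 that rose most and the 3 that fell most. FANCG, BRCA2 and members with a shifted ratio are named beyond this rule, after their values were seen. No 2 libraries were identical, and all columns were used. Python 3.11.15 with pandas 2.3.3 and matplotlib 3.10.9 made the tables and figures.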

Additional observations from a re-analysis of the deposited data

Results flagged for a closer look

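The change from control to aggregation cells differed between U87 and U118 for 12 members by the test of the difference itself (limma, the interaction over 12 libraries, Benjamini-Hochberg adjusted). All 12 differences, U118 minus U87, were negative. The effector kinase CHEK2 differed by -1.05 (adjusted p = 0.0166) and the mediator MDC1 by -1.10 (adjusted p = 0.00626). MRE11 differed by -1.96 (adjusted p = 0.00193). In homologous recombination the differences were -1.35 for BARD1 (adjusted p = 0.0399), -1.51 for RAD51B (adjusted p = 0.0158), -1.42 for RAD54L (adjusted p = 0.00324) and -1.90 for RAD52 (adjusted p = 0.001). Of the Fanconi genes, FANCC differed by -1.32 (adjusted p = 0.0093) and FANCE by -1.30 (adjusted p = 0.00221). In end joining the differences were -1.31 for PRKDC (adjusted p = 0.00558), -1.54 for XRCC5 (adjusted p = 0.0185) and -1.15 for XRCC6 (adjusted p = 0.0267). CHEK2 and FANCC were higher in every U87 aggregation library than in every control library and lower in every U118 one. The call was lost in 10 of 12 fits that left out a library for BARD1 (-1.70 to -1.12, adjusted p up to 0.0962), in 6 for XRCC6 (-1.53 to -0.90, adjusted p up to 0.0685), in 2 for CHEK2 (-0.88 without U118 aggregation library 2 and -0.92 without library 3) and in 2 for MDC1 (-0.91 without U118 control library 3 and -0.96 without U118 aggregation library 1). Under median-ratio scaling CHEK2, MDC1 and XRCC6 were no longer called. BARD1 was also not called with the replicate block (adjusted p = 0.0547), nor with GC and length trends removed (-0.93, adjusted p = 0.0563). Without the filter on low values BARD1, XRCC5 and XRCC6 were not called (adjusted p = 0.0877, 0.0548 and 0.0679). U118 aggregation lay nearer to U87 than to U118 control over all genes, and the part of this in the 12 differences was not tested.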

How the results depend on the processing

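Over single members, 1256 of the alternative values kept their direction and their side of the threshold, 80 lost a call, 34 gained a call and 20 changed sign. The changes of sign all fell on changes that were not called. Under median-ratio scaling the U87 changes became 0.13 for RAD54L, 0.14 for BLM and 0.20 for XRCC5, and the U118 changes 0.22 for RAD51D and 0.44 for XRCC3. Without mitochondrially encoded genes they became 0.0095 for RAD54L, 0.044 for BLM and 0.077 for XRCC5 in U87, and 0.088 for XRCC3 in U118. When libraries were left out singly, the U87 changes ran from -0.18 to 0.41 for BARD1, from -0.41 to 0.27 for BLM, from -0.68 to 0.11 for BRIP1, from -0.13 to 0.21 for FANCL, from -0.087 to 0.33 for PRKDC, from -0.63 to 0.062 for XRCC4, from -0.31 to 0.15 for XRCC5 and from -0.37 to 0.11 for LIG4, and the U118 change of XRCC3 from -0.22 to 0.0012.

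Replicate numbers did not pair the libraries: the deviations of same-numbered libraries correlated at 0.011, -0.067 and -0.040 in U87 and at 0.14, 0.051 and 0.095 in U118. In U118, but not in U87, every control library correlated best with its own number, a hint from the data and not from the design. With the replicate block, 1 member was called lower in U87, TOPBP1 being lost, and 24 in U118, against 7.51% and 27.2% of all genes. In the difference between the lines 11 were called negative, BARD1 being lost, against 18.8% of all genes.

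The U87 count of 2 members called lower became 1 without the filter, without mitochondrially encoded genes and without the trend, against 3.23%, 5.82% and 7.69% of all genes. It became 0 under median-ratio scaling (3.92% of all genes) and 11 without the fold threshold (29.7%), with 1 higher (9.43%). With a library left out it was 1 to 5, against 6.15% to 9.53% of all genes. The U118 count of 24 became 9 under median-ratio scaling (13% of all genes), with 2 higher (14.7%). It became 15 with GC and length trends removed (24.8%) and 20 without mitochondrially encoded genes (21.8%). With a library left out it was 20 to 26, against 20.1% to 38.4% of all genes. The 26 came without aggregation library 1, the fit with 38.4%. In the difference between the lines, leaving out a library gave 9 to 21 negative and 0 to 1 positive calls. Of all genes, 13.2% to 26.6% were negative and 10.9% to 12.6% positive in those fits. With GC and length trends removed 2 were positive, RAD50 and LIG4 (11.5% of all genes), and without the fold threshold 1 (15.5%). The relative median of the members became -0.34 in U87 and -1.18 in U118 without the filter, and -0.41 in U118 with the trends removed. Other pathway genes called lower in U87 were 2 under median-ratio scaling and 23 without the fold threshold, against 3.92% and 29.7% of all genes. In U118 they were 14 at a mean of 10 TPM (25% of all genes) and 12 under median-ratio scaling (13%), with 2 higher (14.7%). Without the fold threshold they were 36 (39.1%), with 1 higher (12.2%). With a library left out they were 18 to 36, against 20.1% to 38.4% of all genes. The median level of the 38 became 10.4 TPM in U87 aggregation and 17.0 TPM in U118 control under median-ratio scaling, and 12.4, 24.0 and 13.5 TPM in U87 aggregation, U118 control and U118 aggregation without mitochondrially encoded genes. Apart from the alternatives that define another scale or fewer libraries, the cause was not tested. The depth of the libraries is unknown.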
